A study of Mus musculus with 2 samples.

Results

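Voltage-gated sodium and calcium channel genes were taken from both deposited tables by their symbols: sodium pore and beta subunits (Scn, a number, then a or b), calcium pore subunits (Cacna1 and a letter), alpha2delta subunits (Cacna2d1 to Cacna2d4) and calcium beta subunits (Cacnb1 to Cacnb4). The 29 genes described here, of the 23746 records in each table, are 18 for pores and 11 for auxiliary subunits, each at 1 locus. The rule does not use any measured value. The sodium pore gene of the symbol Scn2a1, listed as Scn2a in newer annotations, falls outside the pattern and is described beside the members without being counted among them.

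The tables come from RNA sequencing of 2 mouse medulloblastomas, tumours of the cerebellum, with 1 library per genotype. The knockout tumour arose in a mouse of the genotype CAG-CreER, Rosa26-SmoM2, Brg1F/F, and the wild-type tumour in a mouse of the genotype CAG-CreER, Rosa26-SmoM2, Brg1+/+. Both therefore carried SmoM2, an activated Smoothened that turns on Hedgehog signalling, and a tamoxifen-inducible Cre whose CAG promoter is active in most cell types, and both mice had 10 tamoxifen injections. Brg1 is the chromatin remodelling ATPase encoded by Smarca4. The RNA was total RNA of dissected tumour tissue, and the labels give no age of the animals.

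Voltage-gated channels open when the membrane depolarises. Sodium channels carry the upstroke of the action potential, and calcium channels turn depolarisation into calcium entry, which drives transmitter release, gene regulation and rhythmic firing. Each channel has a large pore subunit, which sets its voltage range and drug sensitivity. Many, though not all, also have auxiliary subunits, which affect how many channels reach the membrane and how they gate. In the cerebellum, Purkinje cells and granule neurons are known for high densities of particular family members, and mouse mutants of several of them are ataxic.

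Values are FPKM, fragment numbers divided by the length of the transcript and by the size of the library, so the levels of different genes within a library can be set beside each other. The log2 ratio is log2((knockout FPKM + 1)/(wild-type FPKM + 1)). A record counted as expressed at 1 FPKM or more in either library. It counted as higher where its log2 ratio reached 1 and as lower where it reached -1, a 2-fold difference on this scale. The added 1 FPKM makes the ratios of low genes smaller. Each genotype is represented by a single library, which leaves no replicate error and no test, so "higher" and "lower" compare these 2 tumours, and a difference between the 2 animals and one between the genotypes cannot be told apart.

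Smarca4, the targeted gene, had 3.76 FPKM in the knockout library and 14.0 FPKM in the wild-type library. Xist had 0.369 FPKM in the knockout library and 268.3 FPKM in the wild-type library, and Ddx3y, on the Y chromosome, had 25.1 and 0.00687 FPKM in the knockout and wild-type libraries, so the sexes of the animals appear to differ along with the genotype and the effects of the 2 cannot be told apart. All 8 Purkinje cell markers examined were higher in the knockout library, with a summed level of 733.3 FPKM, against 12.3 FPKM in the wild-type library. Summed markers of GABAergic interneurons had 418.6 FPKM in the knockout library and 18.7 FPKM in the wild-type library, those of mature granule neurons 541.4 and 100.6 FPKM in the same order, and those of granule neuron precursors and tumour cells 141.7 FPKM in the knockout library and 642.1 FPKM in the wild-type library. In bulk tissue, more cells of a type and more RNA per cell cannot be told apart, and the part of cell make-up in the results below was not tested.

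Of the 29 channel genes, 21 were expressed. By the 2-fold rule 12 of these were higher in the knockout tumour, where 16.1% of all 13279 expressed records were, and 0 were lower, where 8.67% of all expressed records were. The median log2 ratio of the 21 was 1.23, within a range of -0.72 to 3.54, and that of all expressed records was 0.09, with an interquartile range of -0.41 to 0.68. The filter itself bears on these counts, because 6 of the 12 (Cacna1g, Cacna1i, Cacna2d2, Cacnb2, Scn1a and Scn4b) reached 1 FPKM only in the knockout library and so passed through the library in which they were high. None (0) passed through the wild-type library alone. Among the 15 members with at least 1 FPKM in both libraries, 6 were higher and 0 lower with a median of 0.68, where 12.2% of 11721 such records were higher with a median of 0.02.

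**Figure D1:**
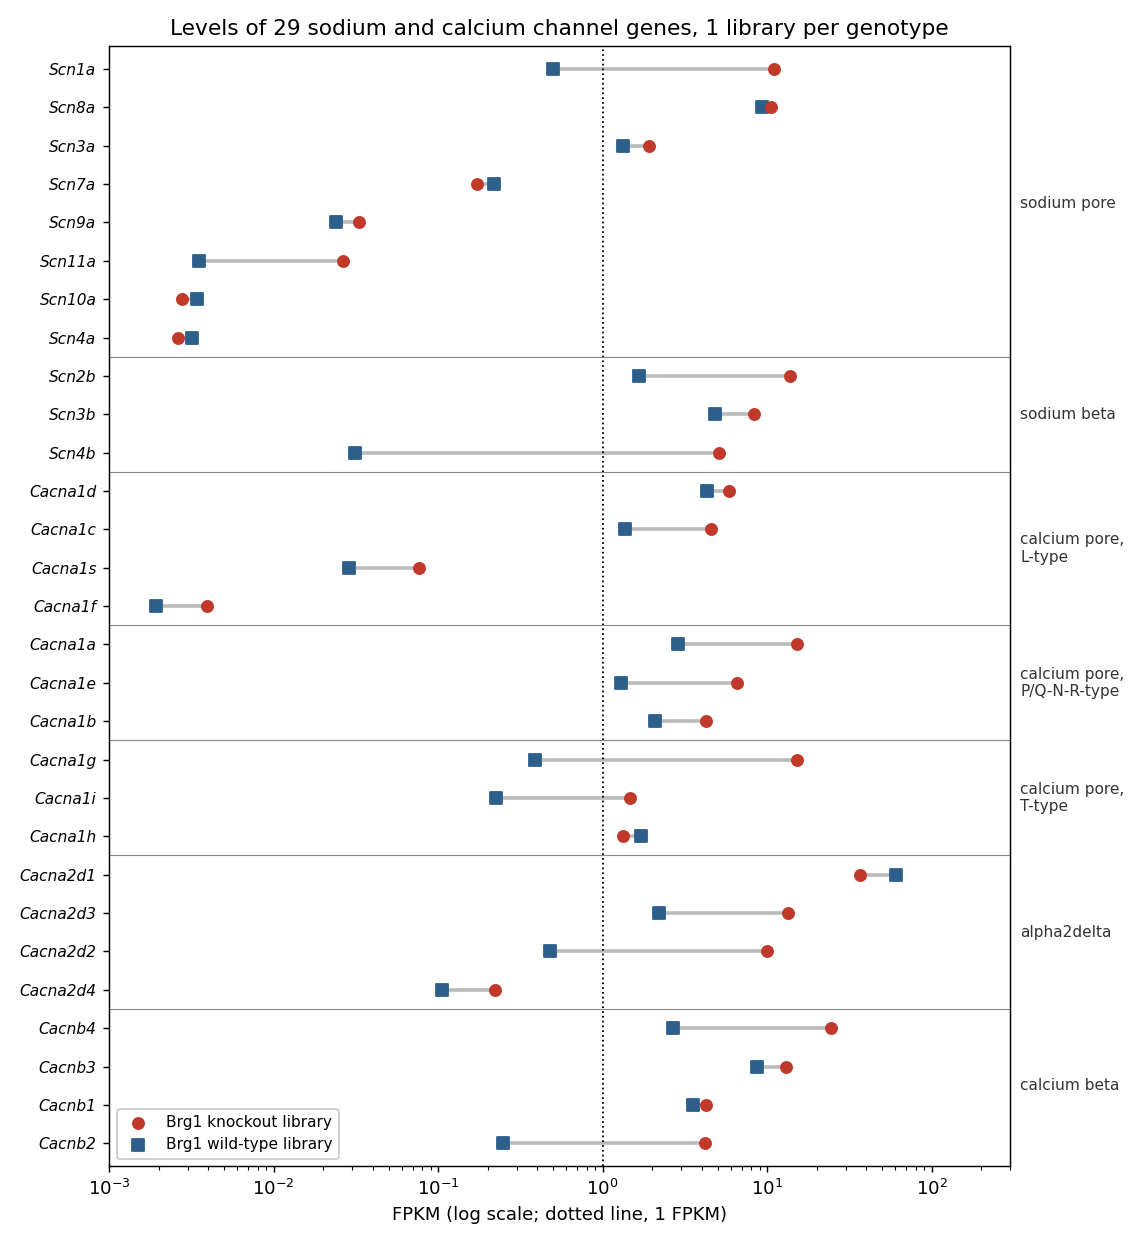
FPKM of the 29 channel genes on a log axis, grouped by subunit class, with the knockout library as circles, the wild-type library as squares and a dotted line at 1 FPKM. The widest gaps among expressed genes belong to Scn4b (5.07 FPKM in the knockout and 0.0314 FPKM in the wild-type library) and Cacna1g (15.1 and 0.386 FPKM in the same order), while Scn8a, Cacnb1 and Cacna1h lie nearly together.

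The knockout library had the higher FPKM for 19 of the 21 expressed members, where 54.8% of all expressed records did. The 2 exceptions were Cacna2d1 and Cacna1h. The tables give a lower and an upper bound for each FPKM, whose making is not stated. The bounds of the 2 libraries lay apart for 20 of the 21, Cacnb1 being the exception, but they did so for 77.7% of all expressed records. Bounds that lie apart are therefore common in these tables and do not single out the channel genes. For 4 of the 21 (Scn1a, Scn3a, Cacna1e and Cacna2d3) the FPKM itself lay outside its own bounds in at least 1 library, as it did for 52.0% of records of at least 1 FPKM in the knockout library and 52.5% in the wild-type library. Log2 ratios from the midpoints of the bounds differed from those of the FPKM by at most 0.10 for every expressed member.

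**Figure D2:**
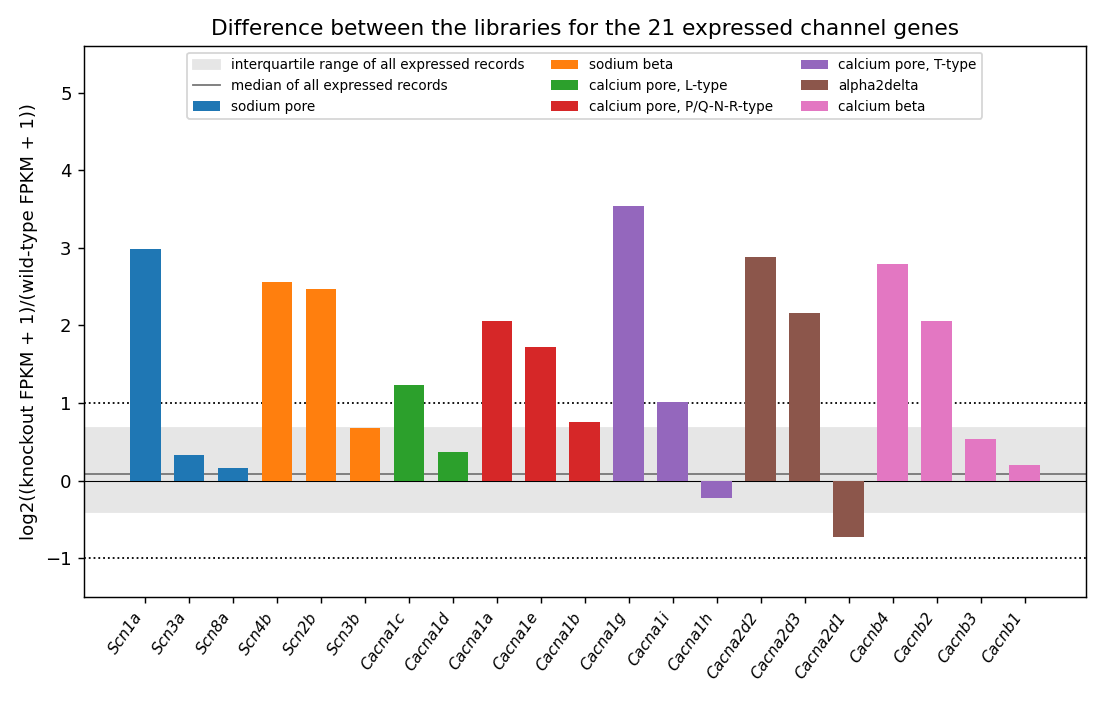
Log2 ratios, knockout over wild type with 1 FPKM added, of the 21 expressed channel genes in the order of their subunit classes, with dotted lines at 1 and -1 and a grey band for the interquartile range of all expressed records. Every class has at least 1 gene above 1 and at least 1 below it, from 3.54 for Cacna1g to -0.72 for Cacna2d1.

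Among sodium pore genes, 1 of the 3 expressed members was higher, where 16.1% of all expressed records were. This gene, Scn1a, reached 1 FPKM only in the knockout library, and a count of 3 genes is no result about the class. Scn1a (mm10 chromosome 2, 66270782 to 66440837, minus strand), the pore gene known for high expression in fast-spiking inhibitory neurons and Purkinje cells and mutated in a severe childhood epilepsy, had 11.0 FPKM in the knockout library and 0.502 FPKM in the wild-type library, a log2 ratio of 2.99. Of all expressed records, 1.42% had a ratio this high. Scn8a (chromosome 15, 100870683 to 101045929), the main pore of axon initial segments and nodes of Ranvier in mature neurons, had 10.6 FPKM in the knockout library and 9.34 FPKM in the wild-type library. Its log2 ratio was 0.16, so the level of this gene was nearly the same in the 2 tumours. Scn3a, a pore gene of embryonic and newborn rodent brain, had 1.92 FPKM in the knockout library and 1.32 FPKM in the wild-type library (log2 ratio 0.33).

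The levels of the sodium pores therefore had a different order in each library. Scn8a made up 44.6% of the summed FPKM of the 8 sodium pore members in the knockout library and 81.8% in the wild-type library, and Scn1a made up 46.3% in the knockout library and 4.40% in the wild-type library. The sum itself was 23.7 FPKM in the knockout library and 11.4 FPKM in the wild-type library. Scn2a1, the pore gene of unmyelinated axons and of immature initial segments, had 11.0 FPKM in the knockout library and 0.900 FPKM in the wild-type library, a log2 ratio of 2.66. With it these pores summed to 34.7 FPKM in the knockout library, made up mainly of Scn2a1 (31.7%), Scn1a (31.6%) and Scn8a (30.4%), against 12.3 FPKM in the wild-type library, of which Scn8a held 75.8%. The FPKM of Scn2a1 and of Scn1a lay below their own bounds in both libraries, so these shares are uncertain. By the midpoints of the bounds the knockout library had 13.4 FPKM for Scn2a1, 11.8 FPKM for Scn1a and 10.7 FPKM for Scn8a.

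Scn1a lies in a run of sodium pore genes on chromosome 2, in the order Scn3a, Scn2a1, Scn1a, Scn9a and Scn7a. The gaps between neighbours were 103.0 kb, 503.3 kb, 39.2 kb and 38.5 kb. Of these 5 genes Scn2a1 and Scn1a differed between the libraries by the 2-fold rule and Scn3a did not. Scn9a (0.0328 FPKM in the knockout library and 0.0240 FPKM in the wild-type library) and Scn7a (0.173 and 0.219 FPKM in the same order) stayed under 1 FPKM, although they lie close to Scn1a.

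Scn4a, Scn7a, Scn9a, Scn10a and Scn11a were under 1 FPKM in both tumours. They are known from skeletal muscle (Scn4a) and peripheral sensory neurons (Scn9a, Scn10a and Scn11a), and Scn7a encodes an atypical channel of glia and of sodium sensing. Marker genes of skeletal muscle and of sensory neurons were also close to 0. Skeletal muscle markers summed to 0.503 FPKM in the knockout library and 0.327 FPKM in the wild-type library, with Ckm and Myh4 listed at 0 in both. Sensory neuron markers summed to 0.481 FPKM in the knockout library and 0.429 FPKM in the wild-type library.

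The sequences before the start sites of Scn1a and Scn8a are shown because these 2 pore genes have near-equal levels in the knockout library and differ in the wild-type library. Each holds the 250 bases upstream of the RefSeq start nearest to the gene start in the deposited tables (GRCm38.p6, the mm10 build), 5′ to 3′ on the strand of the gene. The Scn1a stretch is chr2:66440838-66441087 (minus strand) and the Scn8a stretch chr15:100870395-100870644 (plus strand).
Scn1a: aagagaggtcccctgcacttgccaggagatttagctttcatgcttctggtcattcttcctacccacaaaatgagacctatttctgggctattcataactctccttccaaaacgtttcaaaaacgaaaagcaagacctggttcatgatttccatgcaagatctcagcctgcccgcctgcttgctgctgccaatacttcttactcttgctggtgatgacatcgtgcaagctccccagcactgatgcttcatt
Scn8a: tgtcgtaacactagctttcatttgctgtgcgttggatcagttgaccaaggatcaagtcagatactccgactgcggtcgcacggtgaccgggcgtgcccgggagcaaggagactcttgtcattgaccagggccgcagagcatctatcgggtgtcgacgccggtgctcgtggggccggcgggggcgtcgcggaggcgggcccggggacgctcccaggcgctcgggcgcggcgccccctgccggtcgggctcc
In the 300-base windows that also take in 50 bases after the start, G and C made up 47.3% of the Scn1a window, with 5 CpG dinucleotides, and 70.0% of the Scn8a window, with 38 CpG. A second Scn8a window, at a start further downstream, had 53.3% and 12 CpG. The median of 32851 RefSeq promoter windows was 52.7%. In windows near the gene start, the median was 64.5% for 10 members higher in the knockout library (38.3% to 81.3%). For 6 members within 2-fold it was 71.2% (40.3% to 80.0%), so the 2 ranges overlap. A link between promoter make-up and level was not tested.

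Sodium beta subunits are single-pass membrane proteins with an immunoglobulin fold that alter gating and act in cell adhesion. Scn2b, Scn3b and Scn4b were expressed, and Scn2b and Scn4b were higher in the knockout library, where 16.1% of all expressed records were. Scn4b reached 1 FPKM only in the knockout library, and so few genes give no result about the class.

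Scn2b, whose product is joined to the pore by a disulfide bond, had 13.7 FPKM in the knockout library and 1.66 FPKM in the wild-type library (log2 ratio 2.47). Scn4b, whose product also binds the pore by a disulfide bond and whose tail is linked to the resurgent sodium current of Purkinje cells, had 5.07 FPKM in the knockout library and 0.0314 FPKM in the wild-type library (log2 ratio 2.56). Scn4b thus differed in the same direction as the Purkinje cell markers. These ran from 19.8 to 149.4 FPKM in the knockout library and from 0.597 to 3.79 FPKM in the wild-type library. That direction is not particular to Purkinje cells. Markers of GABAergic interneurons, mature oligodendrocytes and mature granule neurons shared it, with median log2 ratios of 3.69, 3.35 and 3.23. Which cells the Scn4b transcripts came from was not tested. Scn2b (45117876 to 45130070) and Scn4b (45139042 to 45154061) are neighbours on the plus strand of chromosome 9, 9.0 kb apart.

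Scn3b, whose product binds the pore without a disulfide bond, was within 2-fold, with 8.35 FPKM in the knockout library and 4.82 FPKM in the wild-type library (log2 ratio 0.68). Its share of the summed FPKM of Scn2b, Scn3b and Scn4b was 30.8% in the knockout library and 74.0% in the wild-type library. These 3 genes summed to 27.1 FPKM in the knockout library and 6.51 FPKM in the wild-type library, a ratio of 4.16. The sodium pore members summed to a ratio of 2.07, and to 2.82 with Scn2a1 added.

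Of the 10 calcium pore genes, 8 were expressed, 5 of them higher and 0 lower. Of all expressed records, 16.1% were higher and 8.67% lower. Cacna1g and Cacna1i, among the 5, reached 1 FPKM only in the knockout library. The class summed to 54.4 FPKM in the knockout library and 14.3 FPKM in the wild-type library. The presynaptic group came first by summed level. Cacna1a (chromosome 8, 84415364 to 84640249), the P/Q-type pore that carries most calcium current of Purkinje cells and is mutated in tottering mice and in human episodic ataxia, had 15.2 FPKM in the knockout library and 2.88 FPKM in the wild-type library, a log2 ratio of 2.06. Cacna1e, the R-type pore, had 6.58 FPKM in the knockout library and 1.30 FPKM in the wild-type library (log2 ratio 1.72). For Cacna1e both values lay below their own bounds, which were 9.80 to 10.5 FPKM in the knockout library and 2.26 to 2.64 FPKM in the wild-type library, so its level is uncertain while the ratio from the midpoints was 1.69.

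Cacna1b, the N-type pore of presynaptic terminals, had 4.23 FPKM in the knockout library and 2.08 FPKM in the wild-type library. On the FPKM scale that is a ratio of 2.03, and with 1 FPKM added the log2 ratio was 0.76, inside the 2-fold limit. Within this group the share of Cacna1b was 16.3% in the knockout library and 33.3% in the wild-type library, and that of Cacna1a 58.4% and 45.9% in the same order. These shares are uncertain, because the FPKM of Cacna1e lay below its bounds in both libraries. By the midpoints of the bounds the knockout library had 15.3 FPKM for Cacna1a, 10.1 FPKM for Cacna1e and 4.23 FPKM for Cacna1b. The wild-type library had 2.88, 2.45 and 2.09 FPKM in the same order.

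The T-type pores, which open near the resting potential and support burst and rhythmic firing, had the highest ratio of all members. Cacna1g (chromosome 11, 94408391 to 94474198, minus strand), the T-type pore known from Purkinje cells, deep cerebellar nuclei and thalamus, had 15.1 FPKM in the knockout library and 0.386 FPKM in the wild-type library. Its log2 ratio of 3.54 was reached by 0.78% of expressed records. Cacna1h had 1.33 FPKM in the knockout library and 1.72 FPKM in the wild-type library (log2 ratio -0.22). Cacna1i had 1.47 FPKM in the knockout library and 0.225 FPKM in the wild-type library, and its log2 ratio of 1.01 lay at the limit: it was 0.93 after centring on the median of all records.

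As a result the leading T-type gene differed between the tumours. Cacna1g held 84.3% of the summed T-type FPKM in the knockout library and 16.5% in the wild-type library, and Cacna1h held 7.43% in the knockout library and 73.8% in the wild-type library. The T-type sum was 17.9 FPKM in the knockout library and 2.33 FPKM in the wild-type library. Most of this difference lay in the single gene Cacna1g, which like Scn4b was under 1 FPKM in the wild-type tumour.

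L-type pores, the targets of dihydropyridine drugs, couple electrical activity to gene expression in neurons. Cacna1c had 4.58 FPKM in the knockout library and 1.37 FPKM in the wild-type library (log2 ratio 1.23). Cacna1d, which opens at more negative voltages, had 5.87 FPKM in the knockout library and 4.32 FPKM in the wild-type library (log2 ratio 0.37), and it was the most abundant calcium pore gene in the wild-type library, with 30.2% of the calcium pore sum there and 10.8% in the knockout library. The 2 remaining L-type genes are known from skeletal muscle (Cacna1s) and the retina (Cacna1f), and both were under 1 FPKM in the 2 tumours. Photoreceptor markers summed to 0.273 FPKM in the knockout library and 0.170 FPKM in the wild-type library.

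**Figure D3:**
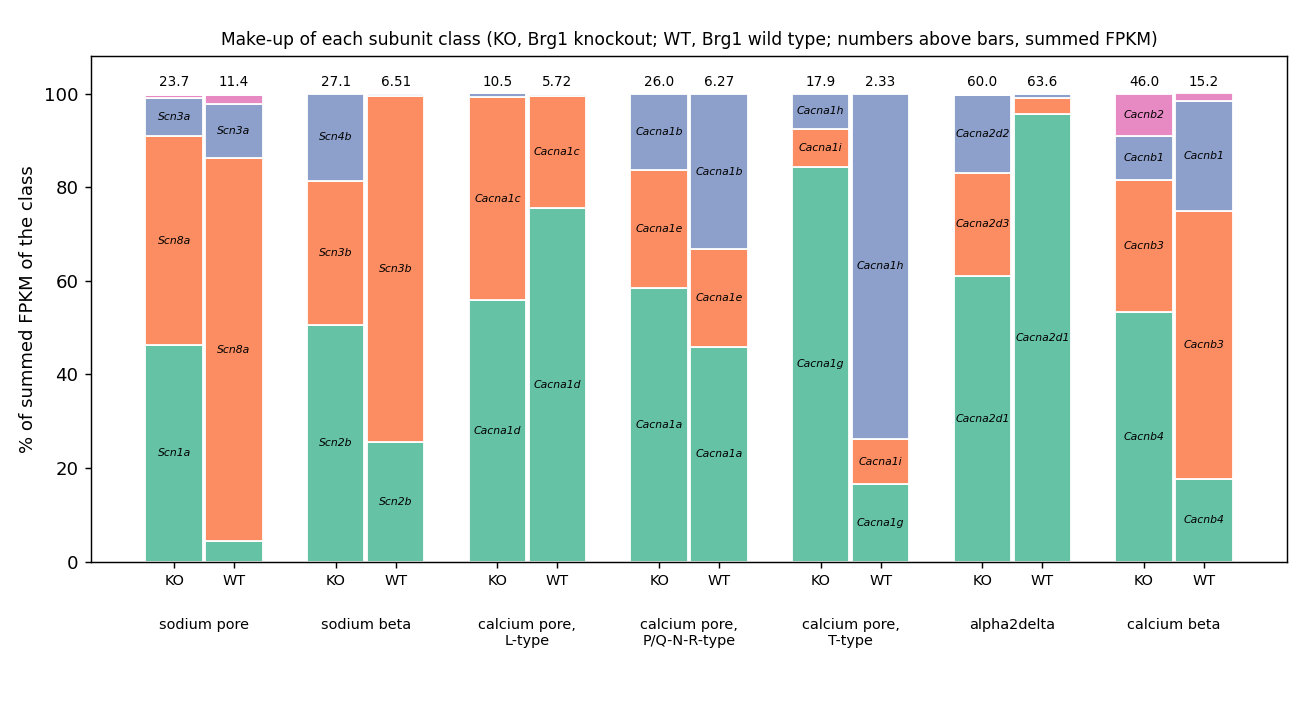
Share of each gene in the summed FPKM of the members of its subunit class, with the knockout library on the left and the wild-type library on the right of each pair and the summed FPKM above each bar. Among the sodium pores Scn8a leads in the wild-type library with 81.8%, while Scn1a (46.3%) and Scn8a (44.6%) are close in the knockout library. Scn2a1 is not drawn. With it the knockout shares are 31.7% for Scn2a1, 31.6% for Scn1a and 30.4% for Scn8a, with no clear leader. The leading gene differs between the libraries in the sodium beta subunits (Scn2b with 50.5% in the knockout library, Scn3b with 74.0% in the wild-type library). It also differs in the T-type pores (Cacna1g, Cacna1h) and the calcium beta subunits (Cacnb4, Cacnb3).

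Alpha2delta subunits are extracellular, membrane-anchored proteins that bring calcium channels to the surface and to synapses. Their summed level was nearly the same in the 2 libraries, 60.0 FPKM in the knockout library and 63.6 FPKM in the wild-type library, while the genes that made it up differed. Cacna2d1 (chromosome 5, 15934691 to 16374511), the target of gabapentin, had 36.6 FPKM in the knockout library and 60.8 FPKM in the wild-type library. It was the most abundant of the 29 members in both libraries. Its log2 ratio of -0.72 was the lowest of the expressed members and stayed within 2-fold.

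Cacna2d2 (chromosome 9, 107399880 to 107529343), the gene mutated in the ataxic ducky mouse and known for strong expression in Purkinje cells, had 9.92 FPKM in the knockout library and 0.481 FPKM in the wild-type library (log2 ratio 2.88). Cacna2d3 had 13.3 FPKM in the knockout library and 2.20 FPKM in the wild-type library (log2 ratio 2.16). Cacna2d1 held 61.0% of the sum in the knockout library and 95.6% in the wild-type library. The fourth gene, Cacna2d4, known from the retina, had 0.221 FPKM in the knockout library and 0.105 FPKM in the wild-type library.

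The stretches before the starts of Cacna2d2 and Cacna2d1 are shown because the log2 ratios of these paralogs lay on opposite sides of 0. Capitals mark the GC box GGGCGG or its reverse complement CCGCCC, the classical Sp1 motif. The coordinates are chr9:107399630-107399879 and chr5:15934441-15934690, both on the plus strand.
Cacna2d2: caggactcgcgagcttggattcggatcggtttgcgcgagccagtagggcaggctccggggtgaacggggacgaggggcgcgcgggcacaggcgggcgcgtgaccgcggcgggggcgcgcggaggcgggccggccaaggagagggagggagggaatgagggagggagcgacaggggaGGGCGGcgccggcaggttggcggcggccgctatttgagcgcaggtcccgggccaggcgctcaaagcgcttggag
Cacna2d1: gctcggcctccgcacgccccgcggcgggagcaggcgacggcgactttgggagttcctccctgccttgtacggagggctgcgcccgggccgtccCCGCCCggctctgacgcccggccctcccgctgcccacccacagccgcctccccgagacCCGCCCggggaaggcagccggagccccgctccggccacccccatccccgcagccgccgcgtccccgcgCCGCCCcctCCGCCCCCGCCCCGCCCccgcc
The Cacna2d2 stretch had 1 GC box and the Cacna2d1 stretch had 6, some of which overlap. Over the whole 300-base windows G and C made up 75.7% for Cacna2d2 and 80.0% for Cacna2d1, so both are GC-rich. A GC box was present in 35.7% of all promoter windows and in 14 of 32 windows of the members.

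Calcium beta subunits bind the cytoplasmic side of the pore and release it from the endoplasmic reticulum. All 4 were expressed and 2, Cacnb4 and Cacnb2, were higher in the knockout library, where 16.1% of all expressed records were. Cacnb2 reached 1 FPKM only in the knockout library, and a count of 4 genes is no result about the class. Cacnb4 (chromosome 2, 52428320 to 52676582, minus strand), the gene mutated in the ataxic lethargic mouse and a partner of P/Q-type channels, had 24.5 FPKM in the knockout library and 2.69 FPKM in the wild-type library (log2 ratio 2.79, FPKM ratio 9.12). Cacnb2, which is also the main beta subunit of the heart, had 4.20 FPKM in the knockout library and 0.249 FPKM in the wild-type library (log2 ratio 2.06). The 5 heart muscle markers summed to 0.636 FPKM in the knockout library and 1.55 FPKM in the wild-type library. Actc1 alone among them reached 1 FPKM, with 0.229 FPKM in the knockout library and 1.08 FPKM in the wild-type library, and the part of heart tissue in the Cacnb2 values was not tested.

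Cacnb3 had 13.0 FPKM in the knockout library and 8.71 FPKM in the wild-type library (log2 ratio 0.53), and Cacnb1, the beta subunit of the muscle channel that is also made in brain, had 4.26 FPKM in the knockout library and 3.56 FPKM in the wild-type library (log2 ratio 0.20). Cacnb1 was the expressed member whose bounds overlapped, at 3.84 to 4.68 FPKM in the knockout library and 3.11 to 4.02 FPKM in the wild-type library. Cacnb4 held 53.3% of the beta subunit sum in the knockout library and 17.7% in the wild-type library, and Cacnb3 held 28.3% and 57.3% in the same order.

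One start of Cacnb4 is shown because it holds the 9-base Gli site GACCACCCA, in capitals, the motif of the transcription factors at the end of the Hedgehog pathway. The stretch is chr2:52675860-52676109 on the minus strand. Its start lies 723 bases from the gene start in the deposited tables, and another RefSeq start lies nearer, at 439 bases. Bases after the shown start were not found in a GENCODE transcript of Cacnb4, so its orientation was not borne out by that check.
Cacnb4: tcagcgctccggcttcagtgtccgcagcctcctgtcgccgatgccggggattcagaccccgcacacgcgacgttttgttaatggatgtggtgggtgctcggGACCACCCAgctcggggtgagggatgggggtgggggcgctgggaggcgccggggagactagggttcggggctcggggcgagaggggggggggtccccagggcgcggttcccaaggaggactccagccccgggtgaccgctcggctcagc
The motif was present in 0.253% of all 32851 windows, read on both strands, and among the 32 windows of 23 members in 1 window each of Cacnb4 and Scn4a. Gli1, itself induced by Hedgehog signalling, had 9.03 FPKM in the knockout library and 89.2 FPKM in the wild-type library. Scn4a had 0.00261 FPKM in the knockout library and 0.00318 FPKM in the wild-type library. A link between Gli factors and the level of Cacnb4 or Scn4a was not tested. A match of letters is not evidence of binding.

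Other motifs were searched in the same windows on both strands. The E-box CAGCTG, bound by basic helix-loop-helix factors such as Atoh1, was in 10 of 32 member windows and in 16.3% of all windows. The CRE half-site TGACG was in 6 of 32 and in 20.8% of all, the TATA box TATAAA in 1 and in 13.6%, and the right half-site GGACAG of RE1, the element of the neuronal repressor REST, in 3 and in 22.2%. The left half-site TCAGCACC of RE1 was in 0 of 32 and in 1.65% of all windows. Scn3a, Scn3b, Cacna1a, Cacna1g, Cacna1h and Cacna2d4 were not matched in the promoter table.

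Of 11 genes for proteins that anchor and tune sodium channels, 8 were higher in the knockout library and 0 lower, with a median log2 ratio of 1.47. All 11 reached 1 FPKM in both libraries, and of all such records 12.2% were higher, with a median of 0.02. The fibroblast growth factor homologous factors bind the cytoplasmic tail of the pore, and all 4 were higher: Fgf14, mutated in human ataxia, had 13.4 FPKM in the knockout library and 2.25 FPKM in the wild-type library (log2 ratio 2.15), Fgf12 had 13.2 and 2.57 FPKM, and Fgf11 and Fgf13 had log2 ratios of 1.71 and 1.02. Cntn1, an adhesion protein that binds beta subunits, had 54.8 FPKM in the knockout library and 14.3 FPKM in the wild-type library. Ank3, the ankyrin that holds sodium channels at the initial segment, was within 2-fold, as was Scn8a. It had 16.6 FPKM in the knockout library and 20.7 FPKM in the wild-type library (log2 ratio -0.30).

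Among 18 expressed records of proteins that act with calcium channels at the presynapse or bind them, 9 were higher and 0 lower (median 0.86), where 16.1% of all expressed records were higher and 8.67% lower. Of the 9, 5 (Syt1, both records of Rims1, Rims4 and Stac2) reached 1 FPKM only in the knockout library. Among the 11 records of at least 1 FPKM in both libraries 4 were higher, where 12.2% of all such records were. The release machinery had the widest differences, with Syt1, the calcium sensor of transmitter release, at 21.2 FPKM in the knockout library and 0.854 FPKM in the wild-type library, and Snap25 at 375.5 FPKM in the knockout library and 57.6 FPKM in the wild-type library. Rims1, which tethers channels to the active zone, had 2 records, both higher, with log2 ratios of 2.47 and 1.29. Rims4, of the same family, had 4.98 FPKM in the knockout library and 0.520 FPKM in the wild-type library. Bsn (log2 ratio 0.07), a scaffold of the active zone, and Stx1a (0.16), of the release machinery, were within 2-fold.

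In the gamma subunit family 0 of 6 expressed genes were higher and 1 was lower, with a median of -0.29. With 16.1% of all expressed records higher and 8.67% lower, these counts of 6 genes are near the background and are no result about the family. Most of its brain members are known chiefly as partners of AMPA receptors. Cacng3 had 2.77 FPKM in the knockout library and 8.25 FPKM in the wild-type library (log2 ratio -1.30), and Cacng7, the most abundant, had 119.9 FPKM in the knockout library and 65.4 FPKM in the wild-type library (log2 ratio 0.87). For the sodium leak channel, which opens without a voltage step, the pore gene Nalcn had 6.76 FPKM in the knockout library and 11.5 FPKM in the wild-type library (log2 ratio -0.69). Of the 4 genes of the complex 1, Unc80, was higher, with 8.31 FPKM in the knockout library and 1.52 FPKM in the wild-type library. All 4 reached 1 FPKM in both libraries, and 12.2% of all such records were higher. A count of 1 in 4 genes is therefore no result about the complex.

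**Figure D4:**
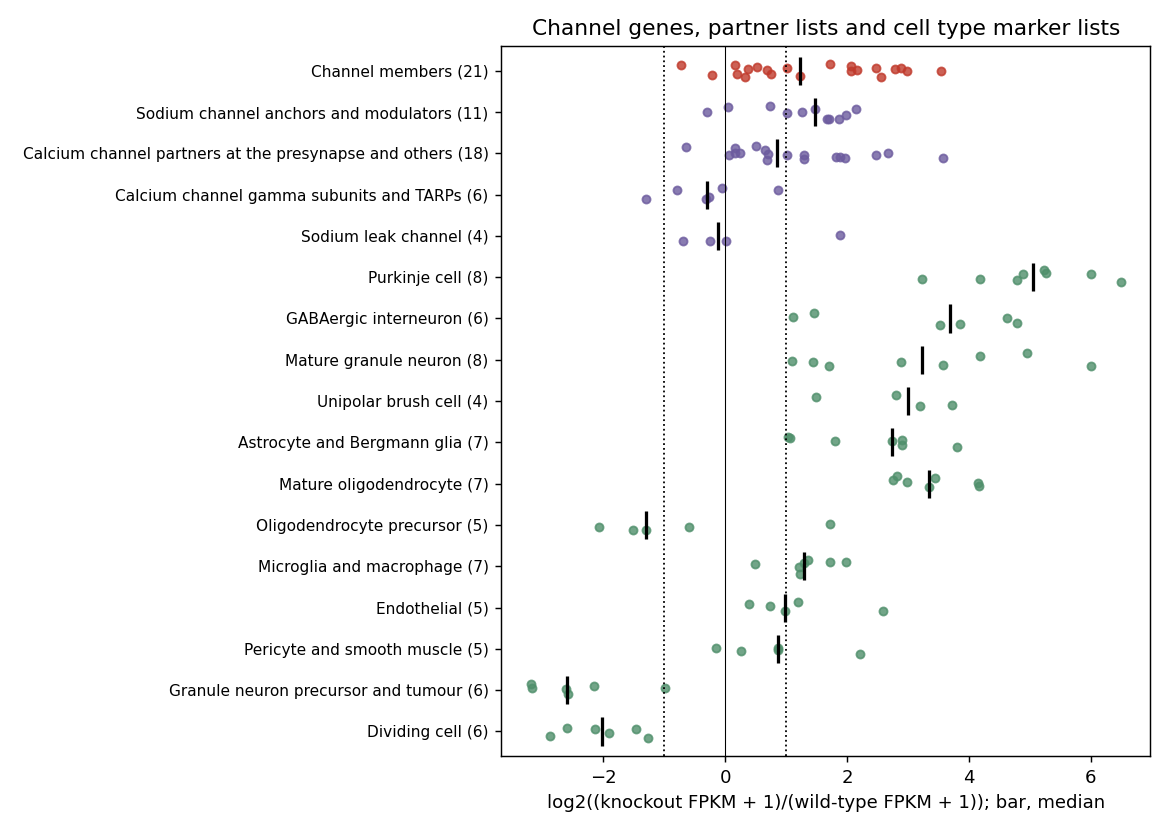
Log2 ratios, knockout over wild type with 1 FPKM added, of expressed records in the channel genes, in 4 lists of partner genes and in 12 cell type lists, with a black bar at each median and the number of records in brackets. The channel genes have a median of 1.23 and the Purkinje cell markers one of 5.06, and the lists of tumour cells (-2.60) and dividing cells (-2.02) lie on the other side of 0.

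Beside these differences, markers of mature cell types of several kinds were higher in the knockout library. The median log2 ratios were 5.06 for Purkinje cells, 3.69 for GABAergic interneurons, 3.35 for mature oligodendrocytes, 3.23 for mature granule neurons, 3.01 for unipolar brush cells and 2.74 for astrocytes and Bergmann glia, and they were -2.60 for granule neuron precursors and tumour cells, -2.02 for dividing cells and -1.30 for oligodendrocyte precursors. The oligodendrocyte precursor list was split: of its 5 markers 3 were lower and 1 was higher, with ratios from -2.07 to 1.73. Microglia, endothelial and pericyte markers had medians of 1.30, 0.98 and 0.87. The channel genes called higher share the direction of the mature neuron markers by their selection, so this agreement carries no information. Of the 21 expressed members, 9 were within 2-fold, and of these Cacna2d1 and Cacna1h had less FPKM in the knockout library. Which cells the channel transcripts came from was not tested.

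Exons of 8 members overlap those of another annotated gene on the opposite strand (GENCODE M21). For Cacna1d and Cacna1h the neighbour is a named gene, Chdh and Tpsg1. The others are Cacna1a, Cacna2d2, Cacnb2, Cacnb4, Cacna1s and Scn9a, each with unnamed models. The sources used here do not say whether the counting used strand, so part of their FPKM may belong to the neighbour.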

How the data were processed

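RNA sequencing values of 2 tumours, 1 library per genotype, were used. Per the file headers, the deposited values are FPKM, and each record also has 2 bounds and a status. Cuffdiff 2.1.1 and mm10 appear, with no role, in the submitters' processing notes. The sources used here do not give the aligner, annotation, filters or strand use. No count table was used here and the depth is unknown, so no counting interval is given: among 650 genes under 0.05 FPKM in both libraries the fullest bin of the log2 ratio, -0.3 to -0.2, held 50, and no step of whole reads was found. Start positions were converted to count from 1.

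From the FPKM, log2 ratios with a pseudocount of 1 FPKM were computed for all 13279 records of at least 1 FPKM in a library, with a 2-fold limit in place of a test. By the rule for named genes all members are named, with up to 4 genes past the limit from each partner list, those of the largest ratio. Ank3, Fgf13, Bsn, Stx1a, Cacng7, Nalcn and Gli1 were added after their values were seen. Xist, Ddx3y, Stac2 and Actc1 are also named outside that rule. The members, lists and alternatives were chosen with earlier results of these data known. Sptbn1 and Sptbn4 were not analysed here. The symbol rule matches 31 genes, of which 2 are not reported here and enter no count, sum or median of the members. Promoter sequences are from RefSeq (GRCm38.p6), matched by symbol for 23 of 29 members. The orientation of the 5 printed stretches was checked by looking for bases after each start in GENCODE transcripts of the gene. They were found for 4 of the 5 and not for Cacnb4. The work used matplotlib 3.10.9, pandas 2.3.3 and numpy 2.4.6 under Python 3.11.15.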

Additional observations from a re-analysis of the deposited data

How the results depend on the processing

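The count of 12 higher channel genes was 11 to 14 under every alternative except the filter of 5 FPKM and the 4-fold limit, which each gave 9. The 9 were of 14 members with the 5 FPKM filter, where 15.8% of all records were higher. They were of 21 members with the 4-fold limit, where 4.17% of all records were higher. The count of 14 came from the 1.5-fold limit, where 28.1% of all records were higher. The count of lower genes was 0 except under a 1.5-fold limit, which gave 1 (Cacna2d1). The median log2 ratio of 1.23 kept its direction. It was 2.25 with a pseudocount of 0.1 FPKM and 1.44 with 0.5 FPKM, 1.36 with FPKM rescaled to the same sum (which took the median of all records from 0.09 to 0.24), 0.53 with no filter on low values, because 8 unexpressed members then count, 1.48 with a mean of at least 1 FPKM, 2.11 with at least 5 FPKM, and 1.48 with Scn2a1 added. Cacna1i left the 2-fold limit after division by the upper quartile, and after centring (0.93). With the 4-fold limit Cacna1c, Cacna1e and Cacna1i were no longer past it, and with the 1.5-fold limit Cacna1b, Scn3b and Cacna2d1 were. No sign of an expressed member changed under these alternatives. No paired analysis was possible because there is 1 library per genotype, and for the same reason no replicate could be left out.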
